A study of Mus musculus with 4 samples.

Results

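Replicate set 2 was compared with replicate set 1 in the mouse telencephalon at embryonic day 13, a stage at which the wall of the forebrain holds dividing progenitors and the first layers of neurons. Set 2 held the libraries Pd1CKO 2 and control 2, and set 1 the libraries Pd1CKO 1 and control 1, so each set had 1 library of each genotype. The set is the replicate number in the sample titles. Whether that number stands for a litter, a dissection, an extraction or a sequencing run is not stated in the labels, nor is the hour within day 13. Pd1CKO embryos carried a conditional knockout of Pd1 (Pdcd1, the gene of an inhibitory receptor best known from T cells). The Cre line and the cells it acts in are not given. The controls are titled wild type and are described in the series record as Pd1 fl/fl, that is, with the floxed but unrecombined allele. All 4 libraries came from C57BL/6 mice, 2 animals per genotype, and were made from oligo(dT)-selected RNA. The comparison covered the 13927 genes, of 30637 in the deposited table, whose mean over the 4 libraries was at least 1 FPKM (fragments per kilobase, scaled to library depth, so that levels are corrected for gene length).

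Radial glia, the stem cells of the embryonic telencephalon, divide at the ventricle, are held in that state by Notch signalling, and express transcription factors such as Sox2 and Pax6. Their daughters pass through an intermediate progenitor state marked by Eomes and proneural factors, leave the cell cycle and switch on Dcx, tubulins and synaptic genes as they migrate outward. Cortical progenitors give rise to glutamatergic neurons, and progenitors of the ganglionic eminences below them to GABAergic neurons. Dissected telencephalon also carries meninges, vessels with blood, microglia and, at the dorsal midline, the cortical hem and choroid plexus.

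The set was the main axis of the data. The first principal component held 81.6% of the variance and separated set 2 from set 1. The second, with 12.1%, separated Pd1CKO 1 from control 1, and the third, with 6.3%, separated Pd1CKO 2 from control 2. Depth recovered from the FPKM steps was 18100000 and 16190000 fragments in Pd1CKO 2 and control 2, against 18730000 and 18570000 in Pd1CKO 1 and control 1. Pdcd1 itself was listed at 0 in both Pd1CKO libraries and in control 1, and at 0.416 FPKM (13 fragments) in control 2, so it does not check the genotype labels. Emx1 and Nkx2-1, transcription factors of the dorsal and the ventral telencephalon, were present in all 4 libraries, at no less than 10.8 FPKM. The midbrain and hindbrain factor En1 and the hindbrain gene Hoxa2 did not exceed 0.0607 FPKM in any library. Single libraries stood apart in 3 ways. Pd1CKO 2 alone expressed Y-linked genes, with Eif2s3y at 19.2 and 0.0148 FPKM in set 2, against 0 and 0 in set 1. It alone lacked Xist, a male pattern that no other library had. Control 2 had the lowest levels of choroid plexus genes, with Ttr at 325 and 17.02 FPKM in set 2, against 246 and 182 in set 1. Control 1 had the highest levels of diencephalic genes, with Gbx2 at 1.12 and 1.93 FPKM in set 2, against 1.54 and 11.2 in set 1. In each such run of values the Pd1CKO library of the set is given first and its control second.

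A total of 2304 genes were higher in set 2 (16.5% of those tested) and 2573 were lower (18.5%), 4877 in either direction (35%), by limma on log2(FPKM + 1) with a Benjamini-Hochberg adjusted p under 0.05. Counts over gene lists are read beside these shares. Differences are given as log2 set 2 minus set 1 with their standard error (SE), and the added 1 FPKM makes them understate the change of weakly expressed genes. All 4877 had the same sign in both genotypes, which a call from 2 libraries a set nearly requires. The libraries of the sets did not overlap, in either direction, for 10123 of the 13927 genes tested. Such a separation is therefore common to most genes and adds little to a call. Of all genes tested, 11104 (79.73%) had the same sign in Pd1CKO 2 over Pd1CKO 1 and in control 2 over control 1, ratios that share no library. Across the 13927 genes the Pearson correlation of these ratios was 0.80 and the Spearman correlation 0.77, given as a description because genes are not independent replicates. At least a 2-fold ratio in both genotypes was reached by 233 genes higher in set 2 (1.67%) and 606 lower (4.35%). Another 18 genes moved 2-fold in opposite directions, 12 of them pseudogenes. Nothing in the labels says that the embryos of a genotype came from separate litters, so a p-value here reflects only how far these 4 samples spread. The counts leaned on single libraries. Without Pd1CKO 2 they were 1074 higher and 1713 lower, and without control 2 they were 1018 and 1596. Without Pd1CKO 1 they were 3586 and 3264, and without control 1 they were 2981 and 3172. The lone library of a set was then assumed to vary like the other set. Rescaling the libraries to 1 common FPKM sum moved the median difference of all genes to 0.14, against 0.03 as deposited. It gave 3282 genes higher and 2060 lower, so that 61.4% of calls were higher, against 47.2% as deposited. Without hemoglobin and mitochondrially encoded genes and with the rest rescaled, the median was 0.15 and 63.5% of calls were higher.

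**Figure D1:**
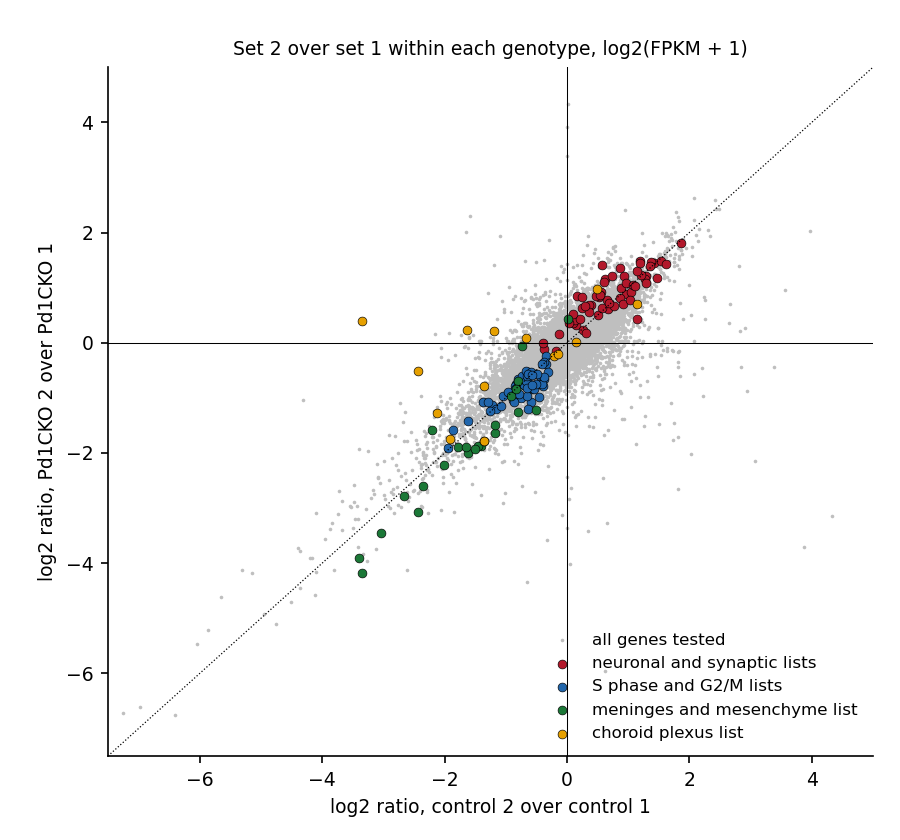
Each point is a gene, placed by its log2 ratio of control 2 over control 1 (horizontal) and of Pd1CKO 2 over Pd1CKO 1 (vertical), on log2(FPKM + 1); grey points are all 13927 genes tested, coloured points are members of the lists named in the legend, and the dotted line marks equal ratios. Neuronal and synaptic genes lie together at the upper right and cell cycle and meningeal genes at the lower left, while several choroid plexus genes lie to the left of the line, lower in control 2 but not in Pd1CKO 2.

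Promoter sequences of some genes from either end of the comparison are given as a description only. Hes5 is the Notch effector that keeps radial glia from differentiating, and Hbb-y and Hba-x are globins of the first, yolk sac-derived red cells, while Hbb-bs and Hba-a1 are globins of the later, liver-derived red cells. The 150 bases before the annotated start (RefSeq, build GRCm38.p6, 5′ to 3′ on the strand of the gene) are printed for these members because Hes5 had the largest fall among the marker genes and embryonic and adult beta globins moved in opposite directions. Capitals mark GTGGGAA in Hes5, the letters of a high-affinity site of the Notch partner Rbpj, and CACCC and CCAAT in the globins, letters that Klf1-type and NF-Y-type factors bind, each searched on both strands. The windows are Hes5 at chr4:154960773-154960922 (plus strand), Hbb-y at chr7:103853208-103853357 (minus), Hbb-bs at chr7:103827929-103828078 (minus), Hba-x at chr11:32276450-32276599 (plus) and Hba-a1 at chr11:32283522-32283671 (plus).
Hes5: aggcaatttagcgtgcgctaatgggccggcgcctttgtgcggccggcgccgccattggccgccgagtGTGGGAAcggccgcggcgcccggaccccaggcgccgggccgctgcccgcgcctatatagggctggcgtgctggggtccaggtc
Hbb-y: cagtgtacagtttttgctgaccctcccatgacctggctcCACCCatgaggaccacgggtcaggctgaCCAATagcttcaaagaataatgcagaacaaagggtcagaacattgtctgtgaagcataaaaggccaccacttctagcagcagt
Hbb-bs: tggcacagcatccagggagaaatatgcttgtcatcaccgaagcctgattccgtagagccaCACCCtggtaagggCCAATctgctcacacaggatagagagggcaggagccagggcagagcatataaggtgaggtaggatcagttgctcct
Hba-x: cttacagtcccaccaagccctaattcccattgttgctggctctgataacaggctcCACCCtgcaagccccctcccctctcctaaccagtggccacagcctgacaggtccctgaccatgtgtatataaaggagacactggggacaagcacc
Hba-a1: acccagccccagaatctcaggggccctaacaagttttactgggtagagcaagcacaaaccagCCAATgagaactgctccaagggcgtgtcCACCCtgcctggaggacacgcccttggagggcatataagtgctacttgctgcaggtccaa

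GTGGGAA began 83 bases before the Hes5 start, and 3.13% of the 32851 promoter windows of this length in the table held it on either strand. CACCC began 111 bases before the start of Hbb-y, 90 before Hbb-bs, 95 before Hba-x and 60 before Hba-a1, and 37.4% of all windows held it. CCAAT began 83 bases before the start of Hbb-y, 76 before Hbb-bs and 88 before Hba-a1. The letters were not in this window of Hba-x, and 24.5% of all windows held them. These matches are a description of the sequence. The Hes5 window was 74% G or C, and the globin windows 49.3% to 56%.

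The 4 progenitor markers were lower and the pair of neuronal markers higher in set 2, in both genotypes. Sox2, a transcription factor of neural stem cells, had 50.5 FPKM in Pd1CKO 2 and 53.3 FPKM in control 2, against 143 FPKM in Pd1CKO 1 and 149 FPKM in control 1. Nes, the intermediate filament of radial glia, had 52.3 FPKM in Pd1CKO 2 and 54.5 FPKM in control 2, against 138 FPKM in Pd1CKO 1 and 129 FPKM in control 1. Hes5 had 7.902 FPKM in Pd1CKO 2 and 9.51 FPKM in control 2, against 46.6 FPKM in Pd1CKO 1 and 68.2 FPKM in control 1. Emx1, a transcription factor of dorsal telencephalic progenitors, had 16.3 FPKM in Pd1CKO 2 and 13.8 FPKM in control 2, against 65.2 FPKM in Pd1CKO 1 and 54.1 FPKM in control 1. For each of these genes both set 2 libraries lay below both set 1 libraries, as a call nearly requires. The log2 difference was -1.47 (SE 0.09, adjusted p = 0.000784) for Sox2 and -1.31 (SE 0.09, adjusted p = 0.000944) for Nes. It was -2.57 (SE 0.20, adjusted p = 0.00131) for Hes5 and -1.92 (SE 0.13, adjusted p = 0.000994) for Emx1. Dcx, a microtubule protein of migrating young neurons, had 87.8 FPKM in Pd1CKO 2 and 84.3 FPKM in control 2, against 38.96 FPKM in Pd1CKO 1 and 34.4 FPKM in control 1, a difference of 1.21 (SE 0.10, adjusted p = 0.00146). Neurod6, a transcription factor of young glutamatergic neurons, had 351 FPKM in Pd1CKO 2 and 346 FPKM in control 2, against 134 FPKM in Pd1CKO 1 and 129.9 FPKM in control 1, a difference of 1.39 (SE 0.09, adjusted p = 0.00085). In these bulk libraries fewer cells of a type and less RNA per cell cannot be told apart. Emx1 and Hes5 have GC-rich transcripts (67% and 61.6% G or C in the longest annotated transcript). Once trends with gene length and GC content were removed from each library, their differences were -0.91 and -1.91, against -1.39 for Sox2. The removal was incomplete at high GC content. Genes above 65% G or C had a median of -1.62 as deposited and -0.60 afterwards. From 60% to 65%, where Hes5 lies, the medians were -0.59 and -0.11. The part of GC content in the Emx1 difference was not tested.

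**Figure D2:**
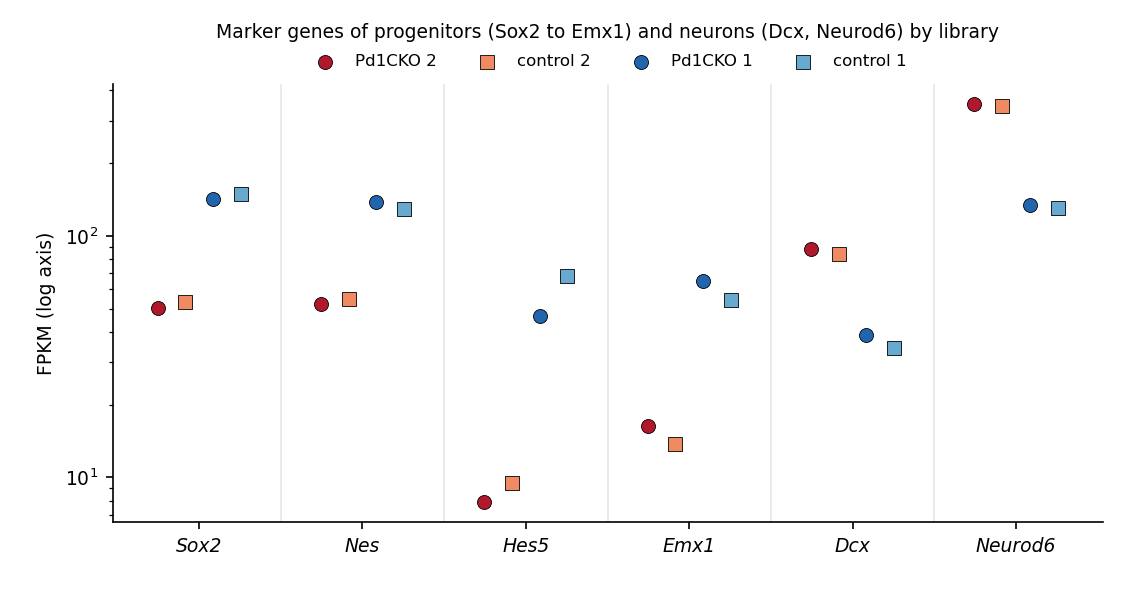
FPKM (log axis) of the 6 marker genes in each library, with set 2 (reds) left of set 1 (blues), circles for Pd1CKO and squares for control libraries. The 2 libraries of a set lie close together for every gene, with Sox2 at no more than 53.3 FPKM in set 2 and no less than 143 FPKM in set 1, and Neurod6 at no less than 346 FPKM in set 2 and no more than 134 FPKM in set 1.

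Of 33 radial glia genes tested, 18 fell and 5 rose, and 10 did not pass the test. The median log2 difference of the list was -0.50, beside 0.03 over all genes tested. Without Pd1CKO 2, 13 fell and 2 rose, and without control 2, 13 fell and 3 rose. Sox3, a close relative of Sox2, had 9.52 FPKM in Pd1CKO 2 and 9.63 FPKM in control 2, against 83.4 FPKM in Pd1CKO 1 and 77.6 FPKM in control 1, the largest fall of the list at -2.94 (SE 0.09, adjusted p = 0.000233). Both set 2 libraries were far below both set 1 libraries. Zfp36l1, an RNA-binding protein that destabilises messages, had 5.505 and 5.203 FPKM in set 2, against 25.3 and 20.9 in set 1 and a difference of -1.92 (SE 0.12, adjusted p = 0.000852). Id4, an inhibitor of basic helix-loop-helix factors, was also lower (-1.39, SE 0.16, adjusted p = 0.00335), as were Sox9 (-1.02, SE 0.09, adjusted p = 0.0017), the filament gene Vim (-1.04, SE 0.10, adjusted p = 0.00251) and the cortical selector Lhx2 (-0.95, SE 0.13, adjusted p = 0.00568). Pax6, which specifies cortical progenitors, had 9.17 and 9.84 FPKM in set 2, against 15.2 and 13.5 in set 1, a smaller fall of -0.55 (SE 0.10, adjusted p = 0.0139).

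The 5 radial glia genes that rose are membrane, matrix and lipid-binding proteins rather than transcription factors. Tnc, an extracellular matrix glycoprotein that radial glia of the outer cortical wall secrete at later stages, had 15.7 FPKM in Pd1CKO 2 and 14.8 FPKM in control 2, against 3.04 FPKM in Pd1CKO 1 and 2.203 FPKM in control 1, a difference of 2.18 (SE 0.14, adjusted p = 0.00092), among the largest rises of any gene tested. Mfge8, a secreted milk-fat globule protein, had 26.7 and 28.4 FPKM in set 2, against 11.4 and 13.6 in set 1 (1.09, SE 0.11, adjusted p = 0.00276). Ptprz1, a receptor phosphatase, had 24.04 and 20.8 FPKM in set 2, against 15.7 and 13.6 in set 1 (0.58, SE 0.12, adjusted p = 0.0176). The glutamate transporter gene Slc1a3 had 14.7 and 14.5 FPKM in set 2, against 11.7 and 8.93 in set 1 (0.48, SE 0.14, adjusted p = 0.0462). The fatty-acid carrier gene Fabp7 had 349.6 and 366 FPKM in set 2, against 269 and 283 in set 1 (0.37, SE 0.09, adjusted p = 0.0308). With length and GC trends removed, Ptprz1 and Slc1a3 no longer passed the test (0.27 and 0.25).

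Notch pathway genes were lower in set 2 on the side of ligands, receptors and targets alike: 14 of 22 fell and none rose by this test, with a median difference of -0.70. Among the ligands, Dll1 had 12.2 and 11.8 FPKM in set 2, against 26.8 and 24.8 in set 1 (-1.04, SE 0.09, adjusted p = 0.00175). Dll3, which acts inside the cell in the same neuronal lineage, had 2.31 and 2.27 FPKM in set 2, against 18.2 and 26.1 in set 1 (-2.79, SE 0.18, adjusted p = 0.000885). Jag1 (-0.53, SE 0.18, adjusted p = 0.0761) and Jag2 (0.18, SE 0.15, adjusted p = 0.361) did not pass the test. Among the receptors, Notch1 had 9.97 and 9.74 FPKM in set 2, against 15.7 and 13.2 in set 1 (-0.50, SE 0.11, adjusted p = 0.0229). Notch3, in brain a receptor of both progenitors and vessel-wall cells, had 7.61 and 7.81 FPKM in set 2, against 21.8 and 20.7 in set 1 (-1.35, SE 0.09, adjusted p = 0.000944). Among targets and feedback genes, Hes1 had 6.37 and 6.395 FPKM in set 2, against 28.8 and 23.3 in set 1 (-1.87, SE 0.12, adjusted p = 0.000944). Nrarp, a feedback inhibitor induced by Notch, had 1.11 and 0.4304 FPKM in set 2, against 14.4 and 17.2 in set 1 (-3.27, SE 0.21, adjusted p = 0.000938). Hey1 had 7.75 and 8.15 FPKM in set 2, against 18.9 and 15.96 in set 1 (-1.04, SE 0.11, adjusted p = 0.00309). Every one of these called genes had both set 2 libraries below both set 1 libraries, as a call nearly requires. Rbpj, the DNA-binding partner of the Notch intracellular domain, had 8.72 and 9.07 FPKM in set 2, against 8.93 and 7.74 in set 1 and did not pass the test (0.09, SE 0.11, adjusted p = 0.561). Nor did the ubiquitin ligase gene Mib1 (-0.15, SE 0.17, adjusted p = 0.535).

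Cell cycle genes fell almost without exception. Of 30 S phase genes 28 fell and of 30 G2 and M phase genes all 30 fell, with medians of -0.71 and -0.69. Most falls were small and tightly repeated between genotypes. Cdt1, a factor that licenses replication origins, had 6.83 FPKM in Pd1CKO 2 and 5.98 FPKM in control 2, against 19.96 FPKM in Pd1CKO 1 and 20.3 FPKM in control 1, a difference of -1.52 (SE 0.10, adjusted p = 0.000944). The helicase subunit gene Mcm2 had 14.7 and 15.1 FPKM in set 2, against 33.9 and 32.8 in set 1 (-1.11, SE 0.08, adjusted p = 0.00121). The sliding clamp gene Pcna had 92.6 and 92.7 FPKM in set 2, against 151 and 149 in set 1 (-0.68, SE 0.08, adjusted p = 0.00379). Pola1 (-0.42, SE 0.14, adjusted p = 0.0719) and Ccne2 (-0.29, SE 0.10, adjusted p = 0.0677) were the S phase genes that did not pass the test, although both passed once length and GC trends were removed. In mitosis, Cdc20, an activator of the anaphase-promoting complex, had 32.1 FPKM in Pd1CKO 2 and 30.9 FPKM in control 2, against 123 FPKM in Pd1CKO 1 and 121 FPKM in control 1, a difference of -1.92 (SE 0.08, adjusted p = 0.000449). Its partner enzyme gene Ube2c had 22.7 and 20.8 FPKM in set 2, against 69.96 and 77.9 in set 1 (-1.72, SE 0.10, adjusted p = 0.000781). The centromeric histone gene Cenpa had 8.97 and 9.25 FPKM in set 2, against 22.1 and 21.99 in set 1 (-1.19, SE 0.09, adjusted p = 0.00109). The mitotic kinase gene Plk1 had 24.1 and 23.7 FPKM in set 2, against 51.8 and 62.7 in set 1 (-1.22, SE 0.11, adjusted p = 0.00208). Mki67, the usual proliferation marker, had 22.2 and 20.1 FPKM in set 2, against 37.97 and 27.1 in set 1 and lay nearest the threshold (-0.58, SE 0.17, adjusted p = 0.048). Without control 2 only 17 of the 30 mitotic genes passed the test, and without any other library 23 to 30 did.

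Regulators of cell cycle exit did not move opposite to the cycle genes: 12 of 18 fell and 2 rose, with a median of -0.59. Without control 2, 7 fell, and without either set 2 library none rose. The cyclin gene Ccnd1, which drives G1 progression in progenitors, had 10.5 and 11.1 FPKM in set 2, against 29.5 and 32.7 in set 1 (-1.44, SE 0.10, adjusted p = 0.000944). The kinase inhibitor gene Cdkn1c, which is switched on as progenitors leave the cycle, had 32.3 and 33.6 FPKM in set 2, against 92.9 and 122 in set 1 (-1.66, SE 0.14, adjusted p = 0.00172). Gadd45g (-1.46, SE 0.12, adjusted p = 0.00168) and Cdkn2c (-1.36, SE 0.10, adjusted p = 0.00119) were lower as well. Cdkn1b, the inhibitor held by many postmitotic neurons, had 40.4 and 38.8 FPKM in set 2, against 38.9 and 34.95 in set 1 and did not pass the test (0.10, SE 0.09, adjusted p = 0.434). Cdk5r1, the neuronal activator of Cdk5, was higher, with 115 and 116 FPKM in set 2, against 76.2 and 78.6 in set 1 (0.57, SE 0.08, adjusted p = 0.00625).

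The intermediate progenitor list split between proneural factors and later genes: 11 of 20 genes fell and 3 rose, with a median of -0.53. Without Pd1CKO 2 only 1 rose and without control 2 none did, and the median was -0.32 with length and GC trends removed. Neurog1, a proneural factor, had 1.704 FPKM in Pd1CKO 2 and 1.54 FPKM in control 2, against 15.01 FPKM in Pd1CKO 1 and 14.1 FPKM in control 1, a difference of -2.57 (SE 0.10, adjusted p = 0.000423). Its relative Neurog2, which commits cortical progenitors to a glutamatergic fate, had 47.9 and 44.8 FPKM in set 2, against 154 and 152 in set 1 (-1.71, SE 0.09, adjusted p = 0.000525). Hes6, an antagonist of Hes1, had 38.4 and 38.1 FPKM in set 2, against 93.4 and 129.7 in set 1 (-1.50, SE 0.16, adjusted p = 0.0031, and -0.91 with length and GC trends removed). Eomes, the defining factor of cortical intermediate progenitors, had 48.7 and 51.4 FPKM in set 2, against 51.8 and 40.8 in set 1, overlapping between sets, and did not pass the test (0.12, SE 0.13, adjusted p = 0.516). Neurod1, which follows Eomes in the same lineage, was higher in set 2, with 26.1 and 26.99 FPKM in set 2, against 17.2 and 17.2 in set 1 (0.60, SE 0.08, adjusted p = 0.00579), as were Elavl2 (0.55, SE 0.12, adjusted p = 0.0225) and Sstr2 (0.42, SE 0.09, adjusted p = 0.0174). Insm1, a zinc finger factor of basal progenitors, fell by the test (-0.65, SE 0.09, adjusted p = 0.00595) but not once length and GC trends were removed (-0.15).

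Genes that all neurons share were higher in set 2, with 20 of 30 rising, none falling and a median of 0.73. Rbfox1, a neuronal splicing factor, had 27.1 FPKM in Pd1CKO 2 and 25.3 FPKM in control 2, against 9.704 FPKM in Pd1CKO 1 and 9.29 FPKM in control 1, a difference of 1.37 (SE 0.09, adjusted p = 0.000944). Mapt, the gene of the microtubule protein tau, had 173 and 176 FPKM in set 2, against 69.6 and 79.2 in set 1 (1.22, SE 0.10, adjusted p = 0.0015). Dpysl3, a growth cone protein of the collapsin response family, had 331 and 348 FPKM in set 2, against 174 and 167 in set 1 (0.99, SE 0.09, adjusted p = 0.00196). The adhesion gene L1cam had 50.9 and 51.7 FPKM in set 2, against 24.9 and 27.5 in set 1 (0.94, SE 0.09, adjusted p = 0.00212). The transcription factor gene Myt1l had 17.3 and 16.1 FPKM in set 2, against 7.66 and 6.01 in set 1 (1.18, SE 0.13, adjusted p = 0.00322). Both set 2 libraries lay above both set 1 libraries for each of these, as a call nearly requires. The most abundant member, the neuronal tubulin gene Tubb3, had 1389 and 1411 FPKM in set 2, against 784 and 1190.1 in set 1 and did not pass the test (0.54, SE 0.21, adjusted p = 0.104), with control 1 lying much nearer to set 2 than Pd1CKO 1. The same gap within set 1 was seen for Stmn3, at 362 and 344 FPKM in set 2, against 200.2 and 308 in set 1 (0.50, SE 0.21, adjusted p = 0.117). Gap43 had the same gap, at 325 and 352 FPKM in set 2, against 145 and 229 in set 1, and passed the test (0.89, SE 0.22, adjusted p = 0.0306). Elavl3, Celf4 and Rbfox3, RNA-binding proteins of young neurons, did not pass, with differences of 0.27 (SE 0.11, adjusted p = 0.108), 0.23 (SE 0.11, adjusted p = 0.178) and 0.01 (SE 0.11, adjusted p = 0.934).

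Among synapse and ion channel genes 27 of 32 rose and none fell, and the median was 0.85. Gria1, a subunit of AMPA-type glutamate receptors, had 26.3 FPKM in Pd1CKO 2 and 27.6 FPKM in control 2, against 6.82 FPKM in Pd1CKO 1 and 6.87 FPKM in control 1, a difference of 1.83 (SE 0.09, adjusted p = 0.000508). Its sister subunit gene Gria2 had 35.2 and 30.8 FPKM in set 2, against 11.9 and 9.99 in set 1 (1.51, SE 0.12, adjusted p = 0.00149). The NMDA receptor subunit gene Grin2b had 6.77 and 6.596 FPKM in set 2, against 2.43 and 1.73 in set 1 (1.33, SE 0.15, adjusted p = 0.00315). On the release side, the complexin gene Cplx1 had 34.2 and 33.2 FPKM in set 2, against 11.7 and 12.2 in set 1 (1.42, SE 0.09, adjusted p = 0.000809). The SNARE gene Snap25 had 19.6 and 18.9 FPKM in set 2, against 6.58 and 7.77 in set 1 (1.31, SE 0.11, adjusted p = 0.00156). The calcium sensor gene Syt1 had 16.3 and 17.1 FPKM in set 2, against 7.36 and 7.6002 in set 1 (1.06, SE 0.09, adjusted p = 0.00168). The kinase subunit gene Camk2b had 21.9 and 22.98 FPKM in set 2, against 7.45 and 7.91 in set 1 (1.44, SE 0.09, adjusted p = 0.000885). The potassium channel gene Kcnq3 had 6.56 and 6.32 FPKM in set 2, against 1.82 and 1.39 in set 1 (1.52, SE 0.13, adjusted p = 0.00172). Nlgn2 (-0.25, SE 0.10, adjusted p = 0.117), Nrxn2 (-0.21, SE 0.12, adjusted p = 0.24), Syp (0.31, SE 0.13, adjusted p = 0.122), Dlg4 (0.44, SE 0.14, adjusted p = 0.059) and Cacna1a (0.24, SE 0.12, adjusted p = 0.175) did not pass.

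Glutamatergic projection neuron genes showed 14 rises and 3 falls among 30, with a median of 0.37. With length and GC trends removed there were 11 rises and 4 falls with a median of 0.20. Without control 2 there were 8 rises and 1 fall, without Pd1CKO 2 there were 10 rises and 1 fall, without Pd1CKO 1 there were 5 falls, and without control 1 there were 6 falls with a median of 0.23. Id2, a helix-loop-helix inhibitor expressed in the cortical plate, had 89.4 and 86.8 FPKM in set 2, against 26.6 and 27.3 in set 1 (1.67, SE 0.08, adjusted p = 0.000512). Mef2c, an activity-regulated factor, had 8.93 and 8.48 FPKM in set 2, against 3.08 and 2.27 in set 1 (1.41, SE 0.14, adjusted p = 0.00246). Sox5, a factor of deep-layer and subplate neurons, had 16.9 and 15.8 FPKM in set 2, against 7.41 and 5.59 in set 1 (1.22, SE 0.14, adjusted p = 0.0036). Lmo3 (0.98, SE 0.08, adjusted p = 0.00172) and Tle4 (0.66, SE 0.09, adjusted p = 0.00481) were higher as well. The deep-layer factor Tbr1, at 53.1 and 51.1 FPKM in set 2, against 46.6 and 37.96 in set 1, did not pass the test (0.30, SE 0.12, adjusted p = 0.106). Fezf2, of the same layers, at 38.3 and 39.1 FPKM in set 2, against 44.5 and 35.4 in set 1, did not pass either (-0.04, SE 0.13, adjusted p = 0.845). Neurod2, which lies close to Neurod6 in function, had 91.1 and 87.9 FPKM in set 2, against 116 and 104 in set 1 and did not pass (-0.29, SE 0.10, adjusted p = 0.0662). The falls were Pou3f1 (-1.51, SE 0.13, adjusted p = 0.00176, and -0.90 with trends removed), Pou3f3 (-0.55, SE 0.12, adjusted p = 0.0216) and Lmo4 (-0.44, SE 0.09, adjusted p = 0.0163).

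Cajal-Retzius and subplate genes, the earliest neurons of the cortical wall, went both ways, with 4 higher and 4 lower among 15 and a median of 0.04. Without Pd1CKO 2 and without control 2 the falls were 2 each. Reln, the glycoprotein that guides migrating neurons, had 20.9 and 19.8 FPKM in set 2, against 7.22 and 4.97 in set 1 (1.61, SE 0.17, adjusted p = 0.00275). Trp73, a defining factor of hem-derived Cajal-Retzius cells, had 5.65 and 6.17 FPKM in set 2, against 5.99 and 5.71 in set 1, almost equal in the 4 libraries (0.01, SE 0.10, adjusted p = 0.94). Lhx5 had 2.83 and 3.31 FPKM in set 2, against 7.74 and 15.7 in set 1 (-1.57, SE 0.30, adjusted p = 0.0149). Of 27 axon guidance genes 11 rose and 2 fell, with a median of 0.42, which was 0.27 without control 1 and 0.19 with length and GC trends removed. Cntn2, an adhesion protein of early axons, had 98.2 and 95.99 FPKM in set 2, against 38.2 and 32.9 in set 1 (1.43, SE 0.10, adjusted p = 0.00109). The netrin receptor gene Unc5d had 6.09 and 6.402 FPKM in set 2, against 2.16 and 1.47 in set 1 (1.38, SE 0.15, adjusted p = 0.00331). Robo2 (0.98, SE 0.14, adjusted p = 0.0063), Robo1 (0.75, SE 0.13, adjusted p = 0.0105) and Nrcam (0.74, SE 0.11, adjusted p = 0.00733) were higher. Robo3, a Robo family receptor of axons that cross the midline of the hindbrain and spinal cord, was lower, with 1.47 and 1.605 FPKM in set 2, against 8.41 and 7.57 in set 1 (-1.82, SE 0.12, adjusted p = 0.000885). Ntn1, the gene of the guidance cue netrin, also fell (-0.71, SE 0.18, adjusted p = 0.0327).

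In the ventral telencephalon the progenitor genes fell, while the genes of their neurons gave counts not far from those of all genes tested. Of 18 ventral progenitor genes 15 fell and none rose, with a median of -1.08. Nkx2-1, which specifies the medial ganglionic eminence, had 10.8 FPKM in Pd1CKO 2 and 12.8 FPKM in control 2, against 37.1 FPKM in Pd1CKO 1 and 67.6 FPKM in control 1, a difference of -2.001 (SE 0.28, adjusted p = 0.0058). Gsx2, a factor of the lateral ganglionic eminence, had 3.72 and 2.596 FPKM in set 2, against 9.84 and 14.7 in set 1 (-1.67, SE 0.22, adjusted p = 0.00522). Dlx2 had 25.9 and 20.3 FPKM in set 2, against 57.5 and 82.8 in set 1 (-1.55, SE 0.20, adjusted p = 0.00499). Olig2 had 6.16 and 6.38 FPKM in set 2, against 17.1 and 27.1 in set 1 (-1.63, SE 0.21, adjusted p = 0.00481). In each of these 4 genes control 1 was the highest library, and the control 1 library was also the highest for diencephalic genes. The part of that tissue in these differences was not tested. Nr2f1, which is expressed in caudal and ventral progenitors, had 44.6 and 44.8 FPKM in set 2, against 85.7 and 85.4 in set 1, equal between the genotypes of each set (-0.92, SE 0.08, adjusted p = 0.00172). Of 24 GABAergic neuron genes 6 rose and 4 fell, with a median of -0.02, beside 16.5% higher and 18.5% lower among all genes tested. At an adjusted p under 0.01, 0 rose and 2 fell. Without Pd1CKO 2 only 2 rose, and without Pd1CKO 1 the falls were 7. Gad1, the enzyme that makes GABA, had 14.8 and 15.7 FPKM in set 2, against 7.51 and 10.1 in set 1 (0.74, SE 0.15, adjusted p = 0.0156). Its sister gene Gad2 had 17.6 and 17.3 FPKM in set 2, against 16.2 and 17.8 in set 1 (0.04, SE 0.09, adjusted p = 0.786). Erbb4, a receptor of migrating interneurons, had 4.58 and 3.74 FPKM in set 2, against 2.099 and 1.69 in set 1 (0.83, SE 0.15, adjusted p = 0.0115). Zfp503, a factor of striatal precursors, had 4.81 and 3.002 FPKM in set 2, against 15.8 and 17.97 in set 1 (-1.89, SE 0.19, adjusted p = 0.00266). Lhx6 (0.41, SE 0.17, adjusted p = 0.115) and Sst (-0.24, SE 0.13, adjusted p = 0.191), markers of medial eminence interneurons, did not pass the test.

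**Figure D3:**
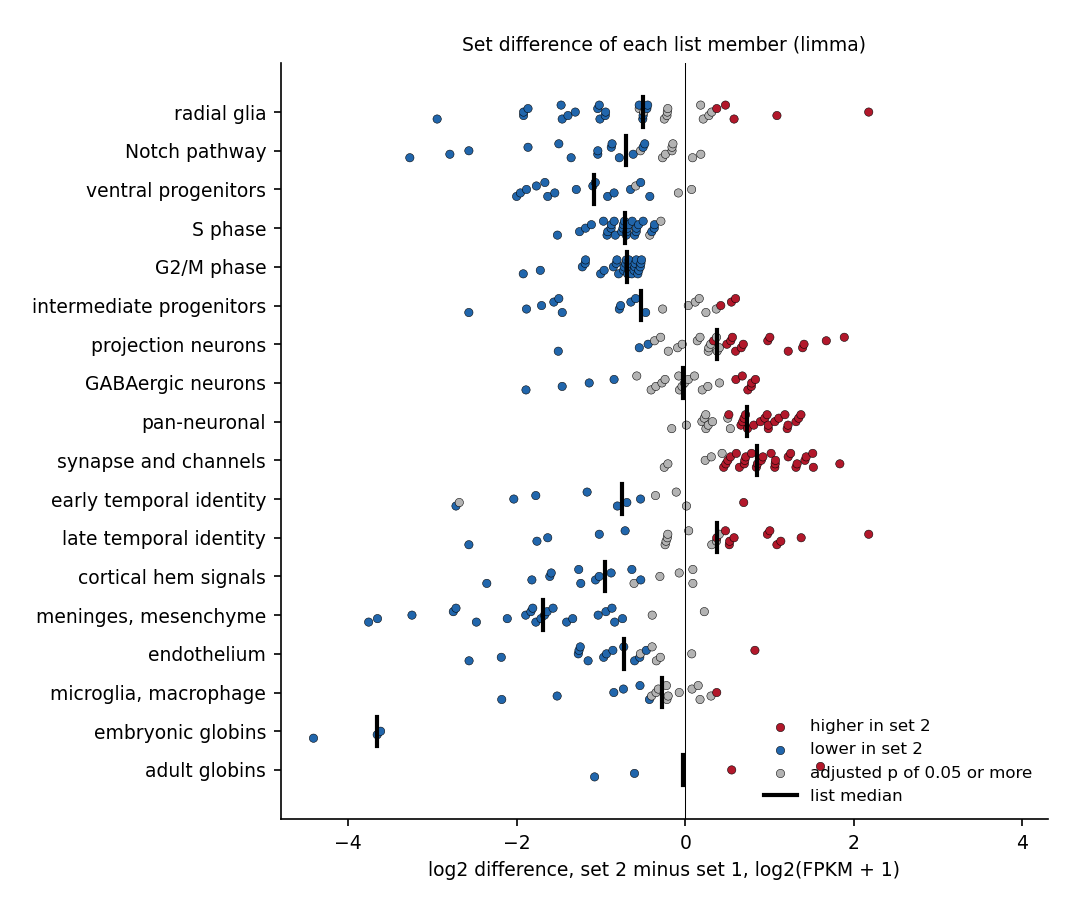
Log2 difference (set 2 minus set 1, on log2(FPKM + 1)) of each tested member of 18 gene lists, 1 point a gene, red where higher and blue where lower in set 2 at an adjusted p under 0.05, grey otherwise, with the list median as a black bar. Cell cycle points all lie left of 0 and nearly all synaptic points right of it, while radial glia, projection neuron and late temporal lists spread over both sides.

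Temporal genes, whose levels in cortical progenitors are known to change as neurogenesis proceeds, leaned towards the direction of their list, with exceptions in both lists. Among 12 early genes 7 fell and 1 rose, with a median of -0.75. This count takes in Crabp2 and Imp3, whose place in the list is doubtful for the reasons given below. Hmga2, a chromatin protein of young progenitors, had 1.46 FPKM in Pd1CKO 2 and 1.24 FPKM in control 2, against 9.77 FPKM in Pd1CKO 1 and 7.59 FPKM in control 1, a difference of -2.03 (SE 0.15, adjusted p = 0.00119). Igf2bp1, an RNA-binding protein of fetal tissues, had 7.66 and 6.83 FPKM in set 2, against 18.5 and 16.5 in set 1 (-1.16, SE 0.11, adjusted p = 0.00203), and Igf2bp2 was also lower (-0.81, SE 0.12, adjusted p = 0.00785). Lin28b, which blocks maturation of let-7 microRNAs, at 1.48 and 1.43 FPKM in set 2, against 1.42 and 1.44 in set 1, did not pass the test (0.01, SE 0.13, adjusted p = 0.944). Crabp2, a retinoic acid carrier, had 2.298 and 3.32 FPKM in set 2, against 21.7 and 26.2 in set 1 (-2.72, SE 0.17, adjusted p = 0.000846), but it is counted among the meningeal genes too. The gene at the symbol Imp3 (-1.77, SE 0.09, adjusted p = 0.000643) encodes a nucleolar protein and not the RNA-binding protein Igf2bp3, which shares that alias and which did not pass (-0.35, SE 0.13, adjusted p = 0.0838). Hmgn2 had 134 and 14.2 FPKM in set 2, against 278 and 302 in set 1, with control 2 far below the other 3 libraries, and did not pass (-2.68, SE 0.96, adjusted p = 0.083). Among 24 late genes 11 rose and 5 fell, with a median of 0.37. The median was 0.17 without control 1, and without Pd1CKO 2 and without control 2 the rises were 6 and 7. Bcan, a brain proteoglycan, had 12.7 and 14.3 FPKM in set 2, against 6.17 and 6.57 in set 1 (0.98, SE 0.10, adjusted p = 0.00292). Luzp2 had 4.25 and 3.77 FPKM in set 2, against 1.47 and 1.102 in set 1 (1.13, SE 0.14, adjusted p = 0.00454). Nfib, a nuclear factor that promotes late cortical fates, had 91.97 and 94.8 FPKM in set 2, against 54.6 and 38.9 in set 1 (1.004, SE 0.17, adjusted p = 0.00957). The late genes that fell, Hes5, Olig2, Sox9, Apoe (-1.76, SE 0.12, adjusted p = 0.00101) and Tfap2c (-0.71, SE 0.14, adjusted p = 0.015), include progenitor genes of the lists above. With length and GC trends removed, 8 late genes were higher and 6 lower, with a median of 0.19.

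Splicing regulators and subunits of the BAF chromatin complex exchange progenitor for neuronal forms as neurons mature. Msi1, an RNA-binding protein of progenitors, had 35.5 and 34.3 FPKM in set 2, against 76.997 and 77.5 in set 1 (-1.12, SE 0.08, adjusted p = 0.00109). Ptbp1, which represses neuronal exons, had 45.1 and 44.3 FPKM in set 2, against 62.1 and 66.4 in set 1 (-0.51, SE 0.08, adjusted p = 0.00933). Srrm4, which promotes neuronal microexons, had 21.3 and 23.3 FPKM in set 2, against 16.2 and 13.8 in set 1 (0.55, SE 0.11, adjusted p = 0.0179). In all, 6 of 22 splicing genes rose and 2 fell, but 2 rose without control 2, 4 without Pd1CKO 2 and 11 without control 1. Among 17 BAF genes 3 rose and 3 fell, shares near those of all genes tested. The progenitor subunit gene Actl6a had 19.6 and 19.03 FPKM in set 2, against 32.4 and 33.1 in set 1 (-0.73, SE 0.08, adjusted p = 0.00334). The neuronal subunit gene Ss18l1 had 26.5 and 28.6 FPKM in set 2, against 15.9 and 14.4 in set 1 (0.82, SE 0.10, adjusted p = 0.00375). The neuronal counterpart of Actl6a, Actl6b, at 39.8 and 40.2 FPKM in set 2, against 25.6 and 33.7 in set 1, did not pass the test (0.43, SE 0.14, adjusted p = 0.0659). Smarca4, the shared ATPase, had 109.7 and 105 FPKM in set 2, against 111 and 115 in set 1 (-0.07, SE 0.08, adjusted p = 0.541).

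Among tissues other than the neural wall, meninges differed between the sets. Of 24 meningeal and mesenchymal genes tested 22 fell and none rose, with a median of -1.69, and the summed level of the whole list was 110 and 94.1 FPKM in Pd1CKO 2 and control 2, against 433 and 408 FPKM in Pd1CKO 1 and control 1. Col1a1, a fibrillar collagen gene, had 0.471 FPKM in Pd1CKO 2 and 0.226 FPKM in control 2, against 21.1 FPKM in Pd1CKO 1 and 11.9 FPKM in control 1, a difference of -3.65 (SE 0.27, adjusted p = 0.00119). Col3a1 had 0.715 and 0.503 FPKM in set 2, against 29.9 and 14.3 in set 1 (-3.76, SE 0.33, adjusted p = 0.00177). Lum, a proteoglycan of connective tissue, had 0.1805 and 0.0504 FPKM in set 2, against 11.9 and 7.63 in set 1 (-3.24, SE 0.22, adjusted p = 0.000953). Foxc1, a transcription factor required for meninges, had 0.397 and 0.423 FPKM in set 2, against 4.29 and 3.03 in set 1 (-1.71, SE 0.18, adjusted p = 0.00274). Twist1, a mesenchymal factor, had 0.0678 and 0.0379 FPKM in set 2, against 2.98 and 2.25 in set 1 (-1.77, SE 0.17, adjusted p = 0.00223). These 5 genes did not exceed 0.715 FPKM in either set 2 library. They therefore passed the filter only through set 1, which fixed the direction of their difference. The count of 22 falls and the median rest partly on such genes, while the summed level takes in members under the filter too. Another 6 members were under the filter, among them Foxc2, at 0 and 0.0453 FPKM in Pd1CKO 2 and control 2, against 2.08 and 1.42 FPKM in Pd1CKO 1 and control 1. Igfbp2, at 60.6 and 48.4 FPKM in set 2, against 184 and 226 in set 1 (-1.89, SE 0.16, adjusted p = 0.00154), and Vtn, at 7.62 and 8.55 FPKM in set 2, against 23.3 and 20.6 in set 1 (-1.34, SE 0.11, adjusted p = 0.00154), also have sources in the neural wall and vessels. With the filter at a mean of 5 FPKM, 9 meningeal genes were lower. The part of meningeal tissue in other results was not tested.

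Of 19 endothelial genes 13 were lower and 1 higher, with a median of -0.73 and summed levels of 90.1 and 87.6 FPKM in Pd1CKO 2 and control 2, against 185 and 185 FPKM in Pd1CKO 1 and control 1. Plvap, a protein of fenestrated and immature vessels, had 1.58 FPKM in Pd1CKO 2 and 1.49 FPKM in control 2, against 13.6 FPKM in Pd1CKO 1 and 14.5 FPKM in control 1, a difference of -2.57 (SE 0.10, adjusted p = 0.000423). Sox18 had 1.43 and 1.18 FPKM in set 2, against 8.797 and 10.2 in set 1 (-2.18, SE 0.13, adjusted p = 0.000802). The tight junction gene Cldn5 had 13.8 and 15.2 FPKM in set 2, against 28.6 and 28.6 in set 1 (-0.93, SE 0.09, adjusted p = 0.00224, and -0.40 with trends removed, where it did not pass). The adhesion gene Pecam1 had 3.503 and 3.38 FPKM in set 2, against 5.26 and 4.98 in set 1 (-0.46, SE 0.11, adjusted p = 0.0239). Slco1c1, a thyroid hormone transporter of the blood-brain barrier, was higher, with 2.47 and 1.85 FPKM in set 2, against 0.659 and 0.893 in set 1 (0.83, SE 0.17, adjusted p = 0.0181). Mfsd2a, another barrier gene, had 11.96 and 11.4 FPKM in set 2, against 10.1 and 12.1 in set 1 (0.08, SE 0.11, adjusted p = 0.634). Mural cell genes were mixed, with 2 higher and 4 lower of 11. Acta2, the smooth muscle actin gene, had 0.279 and 0.312 FPKM in set 2, against 2.76 and 2.57 in set 1 (-1.50, SE 0.14, adjusted p = 0.00209). It passed the filter only through set 1, which fixed the direction of its difference. The pericyte markers Rgs5 (0.54, SE 0.13, adjusted p = 0.0303) and Higd1b (0.95, SE 0.24, adjusted p = 0.0327) were higher, and Pdgfrb did not pass (-0.31, SE 0.15, adjusted p = 0.16).

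Of 18 microglia and macrophage genes 6 fell and 1 rose, with a median of -0.27. Without Pd1CKO 2, 3 fell, and the median was -0.10 with length and GC trends removed. Pf4, a chemokine of border macrophages and megakaryocytes, had 0.306 and 0.343 FPKM in set 2, against 6.59 and 3.73 in set 1 (-2.18, SE 0.24, adjusted p = 0.00327). The lysozyme gene Lyz2 had 1.68 and 0.938 FPKM in set 2, against 4.66 and 6.55 in set 1 (-1.52, SE 0.22, adjusted p = 0.00654). Mrc1, a marker of border macrophages that lay under the filter, had 0.269 and 0.194 FPKM in Pd1CKO 2 and control 2, against 2.04 and 0.786 FPKM in Pd1CKO 1 and control 1. The microglial genes Csf1r (-0.07, SE 0.14, adjusted p = 0.716), Cx3cr1 (0.18, SE 0.19, adjusted p = 0.499) and P2ry12 (0.31, SE 0.17, adjusted p = 0.211) did not pass the test. S100a9, a neutrophil protein, had 0 and 0.118 FPKM in set 2, against 14.01 and 19.6 in set 1 (-4.06, SE 0.18, adjusted p = 0.000453).

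Blood differed in its kind of globin. The embryonic globin genes Hbb-y, Hbb-bh1 and Hba-x all fell, with summed levels of 79.1 and 119 FPKM in Pd1CKO 2 and control 2, against 1286 and 1209 FPKM in Pd1CKO 1 and control 1. Hbb-y had 67.97 FPKM in Pd1CKO 2 and 101 FPKM in control 2, against 1079 FPKM in Pd1CKO 1 and 981 FPKM in control 1, a difference of -3.62 (SE 0.20, adjusted p = 0.000703). Hba-x had 10.7 and 17.2 FPKM in set 2, against 176 and 190.1 in set 1 (-3.66, SE 0.21, adjusted p = 0.000781). Hbb-bh1 had 0.451 and 0.906 FPKM in set 2, against 30.8 and 38.4 in set 1 (-4.41, SE 0.18, adjusted p = 0.000423). The adult beta globin gene Hbb-bs was higher, with 545 FPKM in Pd1CKO 2 and 569.8 FPKM in control 2, against 175 FPKM in Pd1CKO 1 and 190.1 FPKM in control 1, a difference of 1.60 (SE 0.10, adjusted p = 0.000821), and its neighbour Hbb-bt had 168 and 193 FPKM in set 2, against 141 and 107 in set 1 (0.55, SE 0.16, adjusted p = 0.0459). The adult alpha globin gene Hba-a1 was lower, with 341 and 341 FPKM in set 2, against 485 and 556 in set 1 (-0.60, SE 0.11, adjusted p = 0.0123). Near-identical copies can exchange reads, and the pairs gave the same order when summed. Hbb-bs plus Hbb-bt had 713 and 763 FPKM in Pd1CKO 2 and control 2, against 316 and 297 FPKM in Pd1CKO 1 and control 1. Hba-a1 plus Hba-a2 had 352 and 349 FPKM in set 2, against 511 and 571 FPKM in set 1. Of the other 7 red cell genes tested 2 fell, among them the band 3 gene Slc4a1, with 0.553 and 0.492 FPKM in set 2, against 6.39 and 5.18 in set 1 (-2.15, SE 0.14, adjusted p = 0.000953). The haem synthesis gene Alas2, at 8.16 and 8.53 FPKM in set 2, against 10.97 and 9.61 in set 1, did not pass (-0.27, SE 0.11, adjusted p = 0.101).

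**Figure D4:**
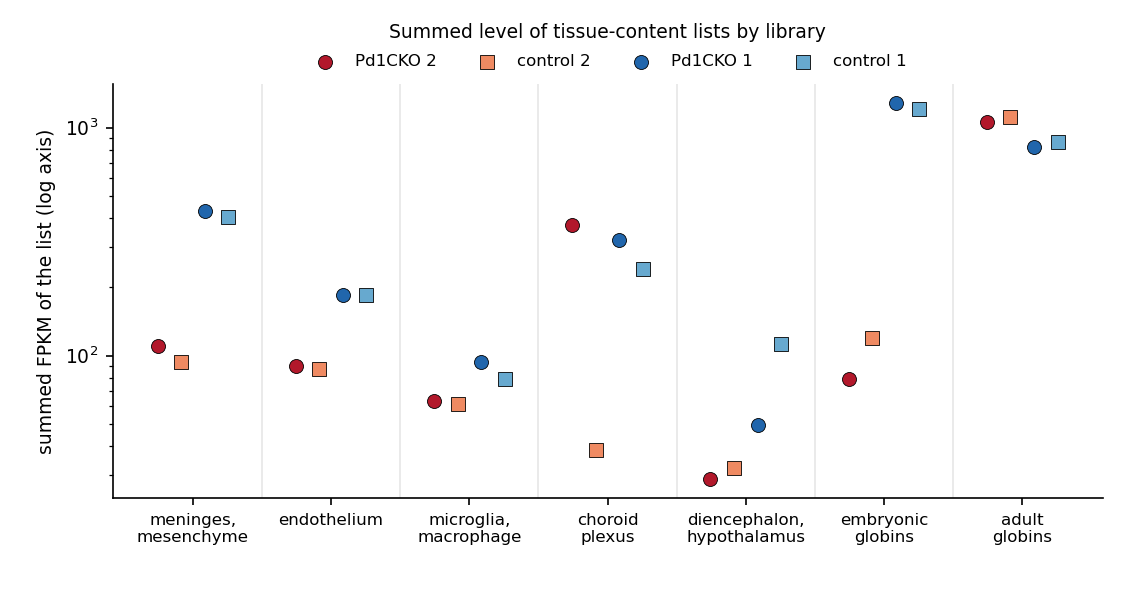
Summed FPKM (log axis) of 7 lists of tissue content in each library, with set 2 (reds) left of set 1 (blues), circles for Pd1CKO and squares for control. Meningeal, endothelial and embryonic globin sums are lower in both set 2 libraries, adult globin sums are higher in both, the choroid plexus sum is low only in control 2, at 38.7 FPKM, and the diencephalic sum is highest in control 1, at 113 FPKM.

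Cortical hem signals, made at the dorsal midline, showed 11 falls and no rise among 16 genes, with a median of -0.95. With the filter at a mean of 5 FPKM only 5 were tested, 2 fell and the median was -0.30, so the count rests largely on weakly expressed genes. Wnt8b had 2.05 and 1.66 FPKM in set 2, against 8.601 and 6.67 in set 1 (-1.59, SE 0.16, adjusted p = 0.00228). Wnt3a had 0.8202 and 0.738 FPKM in set 2, against 3.17 and 2.32 in set 1 (-1.07, SE 0.17, adjusted p = 0.00798). It passed the filter only through set 1, which fixed the direction of its difference. Rspo1, an enhancer of Wnt signalling, had 2.51 and 3.15 FPKM in set 2, against 13.8 and 11.3 in set 1 (-1.82, SE 0.15, adjusted p = 0.00146). The Wnt target Axin2 had 7.07 and 7.74 FPKM in set 2, against 12.8 and 11.3 in set 1 (-0.63, SE 0.11, adjusted p = 0.0102). Msx1 (-2.36, SE 0.19, adjusted p = 0.00143), Bmp7 (-1.61, SE 0.22, adjusted p = 0.00524) and Bmp4 (-1.26, SE 0.22, adjusted p = 0.0105) are made by meningeal mesenchyme as well as the midline, and the part of each source was not tested. Rspo3, at 8.88 and 8.25 FPKM in set 2, against 9.55 and 8.57 in set 1, did not pass (-0.07, SE 0.10, adjusted p = 0.619). Choroid plexus genes gave no shared difference, with 3 of 14 lower and 1 higher. The median ratio was -0.10 in Pd1CKO 2 over Pd1CKO 1 and -1.27 in control 2 over control 1. Once control 2 was left out, the list's median was 0.12. Foxj1, a factor of ciliated cells, was lower in both genotypes, with 5.601 and 3.98 FPKM in set 2, against 21.2 and 17.6 in set 1 (-1.83, SE 0.17, adjusted p = 0.00208). Among signals of the septum and ventral midline 7 of 17 fell and 2 rose. Without control 1, 5 fell and 3 rose. Fgf17 had 1.18 and 0.914 FPKM in set 2, against 9.16 and 12.2 in set 1 (-2.50, SE 0.17, adjusted p = 0.000944). Its relative Fgf8, the signal of the rostral midline, had 0 and 0.0915 FPKM in set 2, against 2.06 and 2.91 in set 1 (-1.73, SE 0.19, adjusted p = 0.00305). Fgf8 passed the filter only through set 1, which fixed the direction of its difference. Shh, the ventral midline signal, had 0.951 and 1.63 FPKM in set 2, against 2.34 and 3.21 in set 1 (-0.73, SE 0.21, adjusted p = 0.0445).

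Of 13 diencephalic and hypothalamic genes tested 6 fell and 1 rose, with a median ratio of -0.28 in Pd1CKO 2 over Pd1CKO 1 and -1.67 in control 2 over control 1. Barhl2 had 1.89 and 1.97 FPKM in set 2, against 8.03 and 12.9 in set 1 (-1.93, SE 0.21, adjusted p = 0.00322) and differed in both genotypes. Olig3, at 0.746 and 0.864 FPKM in set 2, against 0.876 and 6.76 in set 1, was high in control 1 alone and did not pass (-1.08, SE 0.64, adjusted p = 0.236). The same held for Tcf7l2, at 3.17 and 4.56 FPKM in set 2, against 2.602 and 11.9 in set 1 (-0.50, SE 0.58, adjusted p = 0.534). Without control 1 the list's median was -0.34. Of 15 cartilage and bone genes 5 were tested and 4 fell, with Col2a1 at 8.39 and 8.16 FPKM in set 2, against 21.2 and 20.9 in set 1 (-1.25, SE 0.09, adjusted p = 0.000994). Sp7 and Ibsp, which mark bone-forming cells, did not exceed 0.448 FPKM in any library. Bglap, another bone gene under the filter, had 0.626 and 0.599 FPKM in set 2, against 1.64 and 0.784 in set 1. Muscle and skin markers were mostly low: Myod1 and Krt5 did not exceed 0.0980 FPKM, and 17 of 19 such genes lay under the filter. Among these, Acta1 had 1.37 and 1.41 FPKM in set 2, against 0.243 and 0.596 in set 1. Krt8 had 0.592 and 0.126 FPKM in set 2, against 1.14 and 0.797 in set 1. Eye and pigment genes were mostly low too, with 8 of 11 under the filter. Rlbp1, a retinoid-binding protein also made by radial glia, was higher, with 27.7 and 29.6 FPKM in set 2, against 14.9 and 11.8 in set 1 (1.05, SE 0.13, adjusted p = 0.00422). Oligodendrocyte precursor genes were low, 6 of 12 being under the filter, and gave 1 rise and 1 fall. Under the filter, Sox10 had 1.10 and 1.03 FPKM in set 2, against 0.560 and 0.618 in set 1. Gpr17 had 0.723 and 1.07 FPKM in set 2, against 0.277 and 0.269 in set 1. Nkx2-2 had 0.173 and 0.193 FPKM in set 2, against 0 and 0.749 in set 1. With limma-voom 3 of 9 rose and 1 fell, with a median of 0.574.

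Genes of glycolysis and the response to low oxygen were mostly lower: 17 of 25 genes fell and 4 rose, with a median of -0.72. Ddit4, which restrains mTOR under stress, had 28.3 FPKM in Pd1CKO 2 and 27.9 FPKM in control 2, against 135 FPKM in Pd1CKO 1 and 149.5 FPKM in control 1, a difference of -2.30 (SE 0.09, adjusted p = 0.000423). The lactate dehydrogenase gene Ldha had 95.7 and 95.8 FPKM in set 2, against 182 and 221 in set 1 (-1.06, SE 0.12, adjusted p = 0.00332). The glucose transporter gene Slc2a1 had 21.1 and 19.1 FPKM in set 2, against 47.8 and 50.2 in set 1 (-1.25, SE 0.09, adjusted p = 0.00119). The growth factor gene Vegfa had 15.8 and 16.3 FPKM in set 2, against 30.8 and 31.6 in set 1 (-0.92, SE 0.08, adjusted p = 0.00193). The 4 rises included isoforms of the same steps: Slc2a3, the main glucose transporter of neurons, had 6.27 and 5.74 FPKM in set 2, against 3.404 and 3.55 in set 1 (0.65, SE 0.11, adjusted p = 0.00959). The hexokinase gene Hk1 had 21.998 and 21.1 FPKM in set 2, against 11.5 and 14.2 in set 1 (0.71, SE 0.12, adjusted p = 0.0105). The phosphofructokinase gene Pfkp had 12.4 and 12.1 FPKM in set 2, against 4.29 and 3.57 in set 1 (1.43, SE 0.11, adjusted p = 0.00145). Ndrg1 was higher too (1.75, SE 0.11, adjusted p = 0.000829). The other hexokinase gene Hk2 was lower, with 2.67 and 2.76 FPKM in set 2, against 8.11 and 6.21 in set 1 (-1.12, SE 0.14, adjusted p = 0.00474).

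Immediate early genes, which respond within minutes to stimulation or handling, were lower in set 2 where they differed, with 12 of 17 falling and none rising. Jun had 11.97 and 11.8 FPKM in set 2, against 49.7 and 44.3 in set 1 (-1.89, SE 0.10, adjusted p = 0.000527). Ier2 had 6.75 and 5.801 FPKM in set 2, against 26.1 and 24.1 in set 1 (-1.84, SE 0.11, adjusted p = 0.000788). Jund had 5.89 and 4.405 FPKM in set 2, against 90.5 and 113 in set 1 (-4.07, SE 0.17, adjusted p = 0.000423, and -2.98 with trends removed, at 66.8% G or C). Fos, at 0.305 and 0.551 FPKM in Pd1CKO 2 and control 2, against 0.567 and 1.21 FPKM in Pd1CKO 1 and control 1, lay under the filter. The activity gene Arc, at 1.75 and 1.898 FPKM in set 2, against 1.76 and 1.902 in set 1, did not pass (adjusted p = 0.986). Heat shock and stress genes were divided, 1 higher and 6 lower of 13. The haem oxygenase gene Hmox1 had 2.59 and 2.54 FPKM in set 2, against 6.34 and 5.69 in set 1 (-0.98, SE 0.11, adjusted p = 0.00356). The chaperone gene Hspa8 had 504 and 539.9 FPKM in set 2, against 412 and 423 in set 1 and did not pass (0.32, SE 0.10, adjusted p = 0.0545). Interferon genes gave 2 rises and 4 falls among 9, with H2-K1 lower (-0.75, SE 0.12, adjusted p = 0.00906) and H2-D1, a close relative with which it may share reads, higher (0.92, SE 0.16, adjusted p = 0.0111).

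Mitochondrially encoded genes, 1 of 13 higher and 1 lower, took 15675 and 14545 summed FPKM in Pd1CKO 2 and control 2, against 12230 and 12609 in Pd1CKO 1 and control 1. Of 26 nuclear genes of oxidative phosphorylation 8 fell and 2 rose. Cox6a1 had 59.2 and 49.7 FPKM in set 2, against 368 and 347 in set 1 (-2.70, SE 0.11, adjusted p = 0.00045). Cox5b had 9.88 and 10.3 FPKM in set 2, against 78.4 and 68.02 in set 1 (-2.74, SE 0.10, adjusted p = 0.000417). Cox4i1, a subunit of the same complex, at 191 and 195 FPKM in set 2, against 162 and 189.8 in set 1, did not pass (0.14, SE 0.11, adjusted p = 0.359). Of 30 ribosomal protein genes 9 fell and 1 rose, with a median of -0.30. Without either set 2 library 5 fell, without either set 1 library 18 did, and the median was -0.19 without Pd1CKO 1. Rpl13 had 68.9 and 68.02 FPKM in set 2, against 296 and 342 in set 1 (-2.20, SE 0.10, adjusted p = 0.000508). Rps18 had 153 and 158 FPKM in set 2, against 24.04 and 36.9 in set 1 (2.35, SE 0.20, adjusted p = 0.00169). Rps18 and its 6 annotated pseudogenes together took 0.0455% and 0.0468% of fragments in Pd1CKO 2 and control 2, against 0.0228% and 0.0321% in Pd1CKO 1 and control 1. As summed FPKM, the same family was at 198 and 213 in set 2, against 253 and 385 in set 1. Reads of near-identical copies can be shared among them, so values of single ribosomal genes are uncertain. Housekeeping genes gave no rise and 4 falls among 15. Neither Actb, at 719 and 809.6 FPKM in set 2, against 859 and 775 in set 1 (-0.10, SE 0.12, adjusted p = 0.564), nor Ppia, at 243 and 241 FPKM in set 2, against 221 and 278 in set 1 (-0.04, SE 0.13, adjusted p = 0.844), passed the test.

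Among the 12 genes with the largest rises under the naming rule were Rn7sk, Mc4r, Sla, Dync1i1, Rps18, Tnc, Vsnl1, Chl1, Clstn2, Scrg1 and Hivep2. Mc4r, a melanocortin receptor of neurons, had 8.23 and 9.07 FPKM in set 2, against 0.542 and 0.878 in set 1 (2.50, SE 0.15, adjusted p = 0.000788). Sla, an adaptor of receptor signalling, had 7.76 and 7.05 FPKM in set 2, against 0.622 and 0.4396 in set 1 (2.46, SE 0.13, adjusted p = 0.000654). Dync1i1, the neuronal intermediate chain of dynein, had 17.97 FPKM in Pd1CKO 2 and 17.8 FPKM in control 2, against 2.54 FPKM in Pd1CKO 1 and 2.49 FPKM in control 1, a difference of 2.43 (SE 0.09, adjusted p = 0.000423) and the most even of these genes between genotypes. Vsnl1, a neuronal calcium sensor, had 11.7 and 14.6 FPKM in set 2, against 2.26 and 2.62 in set 1 (2.03, SE 0.14, adjusted p = 0.000994). Chl1, a neural adhesion molecule, had 22.3 and 19.3 FPKM in set 2, against 4.04 and 4.72 in set 1 (2.02, SE 0.12, adjusted p = 0.000809). Clstn2, a synaptic cadherin relative, had 11.6 and 12.5 FPKM in set 2, against 2.49 and 2.06 in set 1 (1.99, SE 0.12, adjusted p = 0.000788). Scrg1 (1.92, SE 0.16, adjusted p = 0.0016) and Hivep2 (1.89, SE 0.16, adjusted p = 0.00169) were higher as well. Rn7sk, a short RNA without a poly(A) tail that oligo(dT) selection should leave out, had 28.9 and 29.8 FPKM in set 2, against 6.29 and 0.976 in set 1 (2.9996, SE 0.58, adjusted p = 0.0149), with the 2 set 1 libraries far apart.

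The 12 largest falls were Hist1h2ap, Scand1, Hist1h2ao, Ccdc85b, Pcsk1n, Hbb-bh1, Hist1h2ag, Mrps34, Prr7, Jund, S100a9 and Zfp771. Hist1h2ap, a replication-dependent histone gene, had 0 FPKM in Pd1CKO 2 and 0 FPKM in control 2, against 104 FPKM in Pd1CKO 1 and 152 FPKM in control 1, at least 352-fold lower in set 2 with a floor of 3 fragments per library. Hist1h2ag was at least 54.3-fold lower by the same floor. The 13 annotated genes of the Hist1h2a family summed to 0.472 and 0.237 FPKM in Pd1CKO 2 and control 2, against 278 and 282 FPKM in Pd1CKO 1 and control 1, so the fall held for the sum over its copies. These histone messages end in a stem-loop and carry no poly(A) tail. Within the fixed histone list 5 of 7 tested genes fell and none rose, and 12 more were under the filter. With length and GC trends removed 3 of the 7 fell. Scand1 had 0.0728 and 0.244 FPKM in set 2, against 103 and 156 in set 1 (-6.79, SE 0.21, adjusted p = 0.000233). Ccdc85b had 1.54 and 1.93 FPKM in set 2, against 75.99 and 89.8 in set 1 (-4.94, SE 0.13, adjusted p = 0.000233). Pcsk1n, a precursor of neuroendocrine peptides, had 1.08 and 0.985 FPKM in set 2, against 36.9 and 68.96 in set 1 (-4.66, SE 0.28, adjusted p = 0.000821). Mrps34 (-4.13, SE 0.12, adjusted p = 0.000233), Prr7 (-4.07, SE 0.18, adjusted p = 0.000453) and Zfp771 (-4.04, SE 0.11, adjusted p = 0.000233) had at most 1.18 FPKM in both set 2 libraries and at least 22.7 FPKM in both set 1 libraries.

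GC content moved with the set difference over the whole transcriptome. Genes whose longest annotated transcript was at most 40% G or C had a median difference of 0.16, with 171 of 902 higher and 51 lower. The median was -0.19 from 55% to 60%, -0.59 from 60% to 65% and -1.62 above 65%, where 64 of 79 genes were lower and none was higher by the test. Length moved with it as well: genes of over 8000 exonic bases had a median of 0.22 and genes of 1000 to 2000 bases -0.20. Of the 12 largest falls, Scand1, Jund, Zfp771 and Prr7 are above 65% G or C, while S100a9, Hbb-bh1 and Ccdc85b are not. With both trends removed from each library, 2322 genes were higher (16.7%) and 2632 lower (18.9%) of 13908, and of the original calls 1745 higher and 2062 lower ones were kept in the same direction. Several lists of the neural wall kept their balance and others did not. S phase then had 30 lower of 30, G2 and M phase 30 of 30, radial glia 19 lower and 3 higher, and Notch 15 lower and 1 higher. The pan-neuronal list had 22 higher and the synapse and channel list 23 higher, with none lower in either. The GABAergic list turned to 4 higher and 5 lower, the Cajal-Retzius and subplate list had 3 higher and 4 lower, and splicing genes had 6 higher and 4 lower. Meningeal genes kept a median of -1.66 and embryonic globins of -3.50. Whether the GC trend arose in the tissue or in library preparation was not tested.

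**Figure D5:**
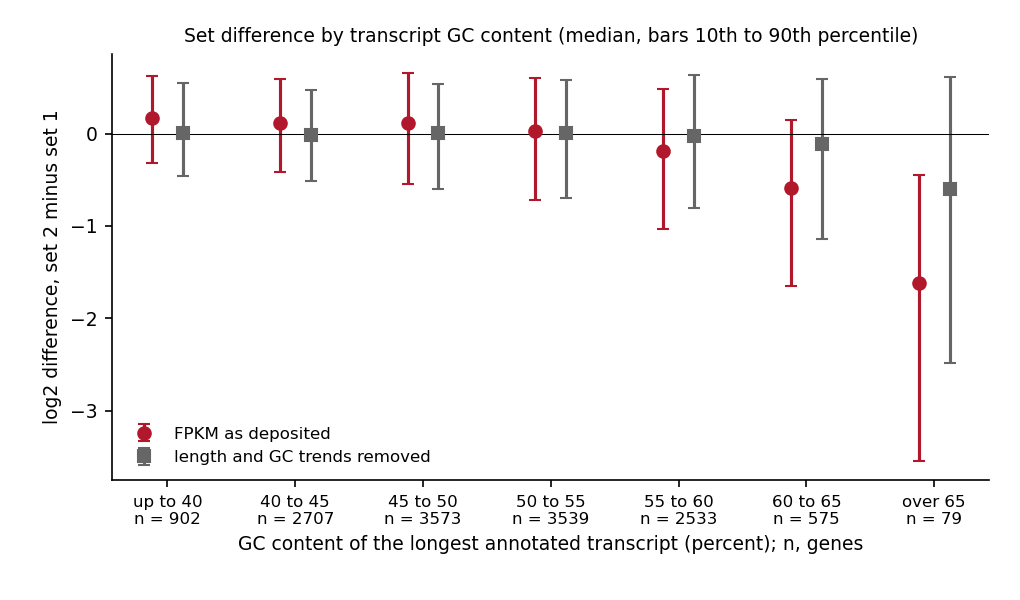
Median log2 difference (set 2 minus set 1) of genes in bins of transcript GC content, with bars from the 10th to the 90th percentile, for FPKM as deposited (red circles) and after removal of length and GC trends (grey squares); n is the number of genes in a bin. As deposited, the median drops to -1.62 in the 79 genes above 65% G or C, and it is -0.60 there after the trends are removed.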

How the data were processed

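RNA from telencephalic tissue of 4 mouse embryos (2 Pd1CKO, 2 control) was sequenced. The deposited table, made by the authors, gives FPKM per gene and library. Its header names no unit, and the values were read as FPKM because they become whole fragments within 0.1 when multiplied by gene length (97.35% to 97.54% of values below 200 fragments, Gencode M21). The submitters' processing notes name mm10, FastQC, fastp, HISAT2, TopHat, StringTie and featureCounts. Roles, versions and whether counting used strand are not given in the sources used here, so overlapping and antisense genes cannot be told apart.

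The fit took genes averaging 1 FPKM or more and was made with limma 3.58.1 (R 4.3.3, intensity trend in the prior) on log2(FPKM + 1) with the set as the only term, and called at a Benjamini-Hochberg adjusted p under 0.05. The fit was also run on simulated counts with the same spread for all genes, 200 changed genes and no genotype, length or GC effect. The real libraries differ in these respects, so the simulation does not check the calls made here. Recovered depths were 16190000 to 18730000 fragments. Trends with length and GC content were removed per library by loess (span 0.5) as an alternative. A further 17 alternatives changed the pseudocount, filter, scaling, model, threshold or libraries. Members of gene lists can belong to several lists and count in each. A gene under 1 FPKM in both libraries of 1 set passes the filter only through the other set, so its direction is fixed in advance. Among others this held for Fgf8, Wnt3a, Acta2, Pf4, S100a9, Slc4a1, Hbb-bh1, Scand1 and Hist1h2ap, all under 1 FPKM in both set 2 libraries. It also held for Mc4r, Sla and Slco1c1, under 1 FPKM in both set 1 libraries.

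Named genes are the 6 markers, the 12 largest rises and 12 largest falls among called genes of the same sign in both genotypes (predicted genes and pseudogenes left out), up to 6 members of each list with the smallest p, sex-linked genes, and members with opposite signs of at least 0.5 in the genotypes. Other members are named beside these for their role and were chosen after their values were seen. The set comparison and the lists were chosen with earlier results of these data known. A few genes that the rule names are not reported here.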

Additional observations from a re-analysis of the deposited data

Results flagged for a closer look

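Some list members moved 1 way in Pd1CKO 2 over Pd1CKO 1 and the other way in control 2 over control 1, with a gap of at least 1 between the log2 ratios. Each ratio rests on 1 library a side, so the difference between genotypes was not tested. The gap (ratio in Pd1CKO minus ratio in control) was 3.74 for Ttr, 1.87 for Aqp1 and 1.40 for Folr1, choroid plexus genes that were low in control 2 alone. It was 1.43 for Tcf7l2 and 1.18 for Dlx5, both highest in control 1, where Dlx5, a factor of GABAergic precursors, had 42.9 FPKM, against 28.1, 21.9 and 23.7 FPKM in Pd1CKO 2, control 2 and Pd1CKO 1. It was -6.58 for Xist, which was at 0.00308 FPKM in Pd1CKO 2 and at 54.0 FPKM in control 2, against 61.2 and 34.7 FPKM in Pd1CKO 1 and control 1.

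Short or multicopy transcripts made up the rest. The gap was -2.71 for the histone gene Hist1h4i, at 35.0 FPKM in Pd1CKO 1 and no more than 6.28 FPKM elsewhere. It was -1.27 for the ribosomal gene Rps27 and -1.08 for the complex III gene Uqcrb, both highest in Pd1CKO 1. Among mitochondrially encoded genes it was 1.67 for mt-Atp6, with 79.2 and 65.4 FPKM in Pd1CKO 2 and control 2, against 45.1 and 121 FPKM in Pd1CKO 1 and control 1, and -1.25 for mt-Nd4l. The mt-Atp6 ratio was at least 0.5 in size each way.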

How the results depend on the processing

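The 6 markers and the 12 largest rises and falls kept their direction and call under 532 of 535 combinations of gene and alternative. The exceptions among them were Rn7sk, which no longer passed with no filter on low values, with a robust prior or at an adjusted p under 0.01. Of the 407 called members of the gene lists none changed sign under the alternatives run. Their call was lost by 107 without Pd1CKO 2, 109 without control 2, 10 without Pd1CKO 1, 6 without control 1, 43 with length and GC trends removed, 143 with no filter, 168 at an adjusted p under 0.01, 238 with a log2 difference of at least 1 required, 36 on rescaling to a common sum, 42 of 398 without hemoglobin and mitochondrial genes, and at most 20 under the others. Counts of higher and lower genes were 1266 and 1710 with no filter, 806 and 1253 at an adjusted p under 0.01, and 320 and 777 with a log2 difference of at least 1 required. Without hemoglobin and mitochondrial genes 3468 were higher. Leaving out 1 library gave 1018 to 3586 higher and 1596 to 3264 lower genes, and 17 to 30 G2 and M phase genes lower. With no filter 17 G2 and M phase and 12 pan-neuronal genes passed, and at an adjusted p under 0.01 these were 16 and 12. Requiring a log2 difference of at least 1 left 11 radial glia, 4 S phase and 6 G2 and M phase genes lower and 8 pan-neuronal and 13 synapse genes higher. With the filter at 5 FPKM 9 meningeal genes were lower. Some medians of lists with at least 5 tested genes changed sign. With a common sum the BAF median was 0.0531, housekeeping 0.0127, mural 0.0249, nuclear-retained RNA 0.0525 and GABAergic neurons 0.0826, and without hemoglobin and mitochondrial genes 0.0723, 0.0315, 0.0406, 0.0689 and 0.0989 in that order, against values below 0 as deposited. The GABAergic median was also above 0 without Pd1CKO 2 (0.0058), without control 1 (0.085) and with limma-voom (8.21e-05). The Cajal-Retzius and subplate median was -0.0411 with trends removed and -0.000483 without control 2, and the choroid plexus median 0.115 without control 2. With the filter at 5 FPKM the oligodendrocyte precursor list kept only 1 gene, at -1.63, so it gives no median to compare. The cause of the sign changes was not tested beyond the shift of all genes that rescaling makes. The size of medians over weakly expressed lists followed the pseudocount, the meningeal median being -2.71 with 0.1 FPKM added and -0.772 with 5. No paired analysis was possible because the replicate number is itself the comparison. With a term for genotype, 2396 genes were higher and 2703 lower. At these depths 3 fragments of a 1 kb transcript correspond to 0.160 to 0.185 FPKM, so differences between levels under that are not detectable.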
